A study of Mus musculus with 20 samples.

Results

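The DEAD and DEAH box proteins are RNA helicases, enzymes that use ATP to pull apart RNA duplexes or to strip proteins from RNA, and they are named after a short run of amino acids in one of their ATPase motifs. Most act at a particular step in the life of an RNA: remodelling the spliceosome, building ribosomes in the nucleolus, carrying mRNA through the nuclear pore, starting translation, storing or decaying mRNA, or sensing viral RNA. N6-methyladenosine (m6A) is a methyl mark inside mRNA, written by a complex whose catalytic subunit is Mettl3 and known for its effects on the decay, splicing and translation of the transcripts that carry it.

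Members were all peaks of m6A whose gene symbol in the authors' annotation began with Ddx or Dhx and a digit. They made up 124 of 25992 peaks over both cell types, in 42 genes (28 Ddx and 14 Dhx). The iNKT table held 50 of them in 29 genes, out of 12542 peaks. The DP table held 74 in 39 genes, out of 13450 peaks. RefSeq holds 53 mouse genes with such symbols, and 11 of these gave their name to no peak.

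The study sequenced m6A immunoprecipitates and their inputs from sorted thymocytes of C57BL/6 mice aged 6 to 8 weeks, in 20 libraries. Mettl3-deleted cells came from Mettl3fl/flCD4-cre mice, in which Cre under the control of Cd4 deletes floxed Mettl3, and they were set against cells of mice labelled WT. Invariant natural killer T (iNKT) cells, sorted as negative for the dye 7AAD and positive for the CD1d tetramer and TCR beta, had 3 replicates per genotype and library type. CD4+CD8+ double-positive (DP) thymocytes, sorted as negative for 7AAD and the tetramer, had 2. Cd4 is switched on around the DP stage, and iNKT cells descend from DP cells. The labels do not say whether a replicate is 1 mouse or a pool. They name m6A-seq and a low-input variant, m6A-LACE-seq, without assigning either to a cell type, so a difference between cell types and one between protocols cannot be told apart.

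All values per peak are the authors' own, from 1 comparison of the genotypes in each cell type. Fold enrichment is immunoprecipitate over input, and the log2 fold change is the change in methylation between the genotypes. A peak passed where the authors' false discovery rate (FDR) for that change was at most 0.05. The tables hold no value per library, so depth and the spread between replicates are unknown, and transcript levels were not analysed here. Which genotype stands on top of the fold change is not written in the files. Negative values were taken as likely lower in Mettl3-deleted cells, since Mettl3 writes the mark and since the deposited gene lists follow that sign. They held 25 of 25 helicase genes with a negative iNKT peak and 31 of 31 with a negative DP peak, and none of the 4 and 8 helicase genes without one. Over all genes they held 5339 of 5343 with a negative iNKT peak and 4336 of 4337 with a negative DP peak. The lists thus follow the sign at any FDR and do not themselves name the genotype on top. All 6 genes of an iNKT marker list, Zbtb16 among them, had an iNKT peak, against 2 with a DP peak. Of 7 DP markers, 3 had an iNKT peak and 4 a DP peak. Of 8 markers of myeloid cells, thymic epithelium and erythroid cells, Itgax had an iNKT peak, and Itgam and Csf1r had a DP peak. A peak is not a level, and the part of other cells in the results was not tested. Coordinates are on mm10, and position classes and exon numbers are those of the authors' annotation.

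Peaks at the start of a transcript are shown by sequence, because antibodies to m6A also bind a related mark on an adenosine next to the cap, which another enzyme writes. In iNKT cells 4 helicase peaks covered a RefSeq start of their gene (Ddx5, Ddx42, Ddx39b and Ddx47), and in DP cells 1 did (Ddx27). Start windows were at hand for 36 of the 42 genes, so peaks over a start of the others could not be counted. The first 30 bases from each start, from RefSeq (GRCm38.p6, the same build as mm10), follow with the first transcribed base in capitals.
Ddx5 (chr11:106788465-106788494, minus strand): Acctcattcatttccatcggtccttgccct
Ddx42 (chr11:106216926-106216955, plus strand): Gcgcatgtcagacgctccccccaccctacc
Ddx39b (chr17:35241746-35241775, plus strand): Ctggcggccgggaaggcgggaggccggggc
Ddx47 (chr6:135011612-135011641, plus strand): Tcggccccacttccggagcccacgagcaag
Ddx27 (chr2:167015313-167015342, plus strand): Ggaagtggctgcttcttcagcatgctggcg
Ddx5 alone of the 5 starts with an A, as do 34.4% of the 32851 start windows in the RefSeq table. The Ddx5 peak also reached upstream of the start shown, to 106788754. The A shown therefore lies within the gene and not at its outermost start. The Ddx27 peak likewise reached upstream of the start shown for it, to 167015283, so the G shown need not be the outermost first base. A RefSeq start need not be the one used in thymocytes. The letters GGAC, a common form of the site that the Mettl3 complex methylates, were searched on the transcribed strand of the first 50 bases and occurred for Ddx47 and Ddx27, against 18.9% of all windows.

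None of the 4 iNKT peaks over a start passed. Ddx5 encodes a cofactor of splicing and transcription, and the authors' deposited table gave its peak a fold enrichment of 20.6 and a log2 fold change of 0.138 (FDR 0.76). The other log2 fold changes that the authors' deposited table listed over a start were -0.638 for Ddx42 (FDR 0.47), -1.22 for Ddx39b (FDR 0.72) and -2.63 for Ddx47 (FDR 0.27). Ddx42 works with the U2 particle of the spliceosome, and Ddx39b in splicing and mRNA export. For the DP peak of Ddx27, the authors' deposited table listed 0.052 (FDR 0.65). Over all genes, 11.6% of the 543 iNKT peaks over a start were lower, against 20.2% of the other 11999 peaks. In the DP table the order was the opposite, though on only 3 lower peaks over a start: 2.59% of the 116 such peaks were lower, against 0.727% of the other 13334.

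In Mettl3-deleted iNKT cells, 18 of the 50 helicase peaks were lower than in WT (36%) and 1 was higher (2%), while 19.8% of all iNKT peaks were lower and 5.84% higher, 25.7% in either direction. The lower peaks lay in 13 of the 29 helicase genes (44.8%) and the higher one in 1 gene. Of all genes with an iNKT peak, 26.2% had a lower one, 9.64% a higher one and 33.4% either. A negative log2 fold change was listed for 42 of the 50 peaks (84%), against 68.6% of all iNKT peaks. In the authors' deposited table the median was -1.48 for helicase peaks, against -0.976 for all iNKT peaks. Among the peaks that were lower, medians in the authors' deposited table were -4.13 and -3.64.

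**Figure D1:**
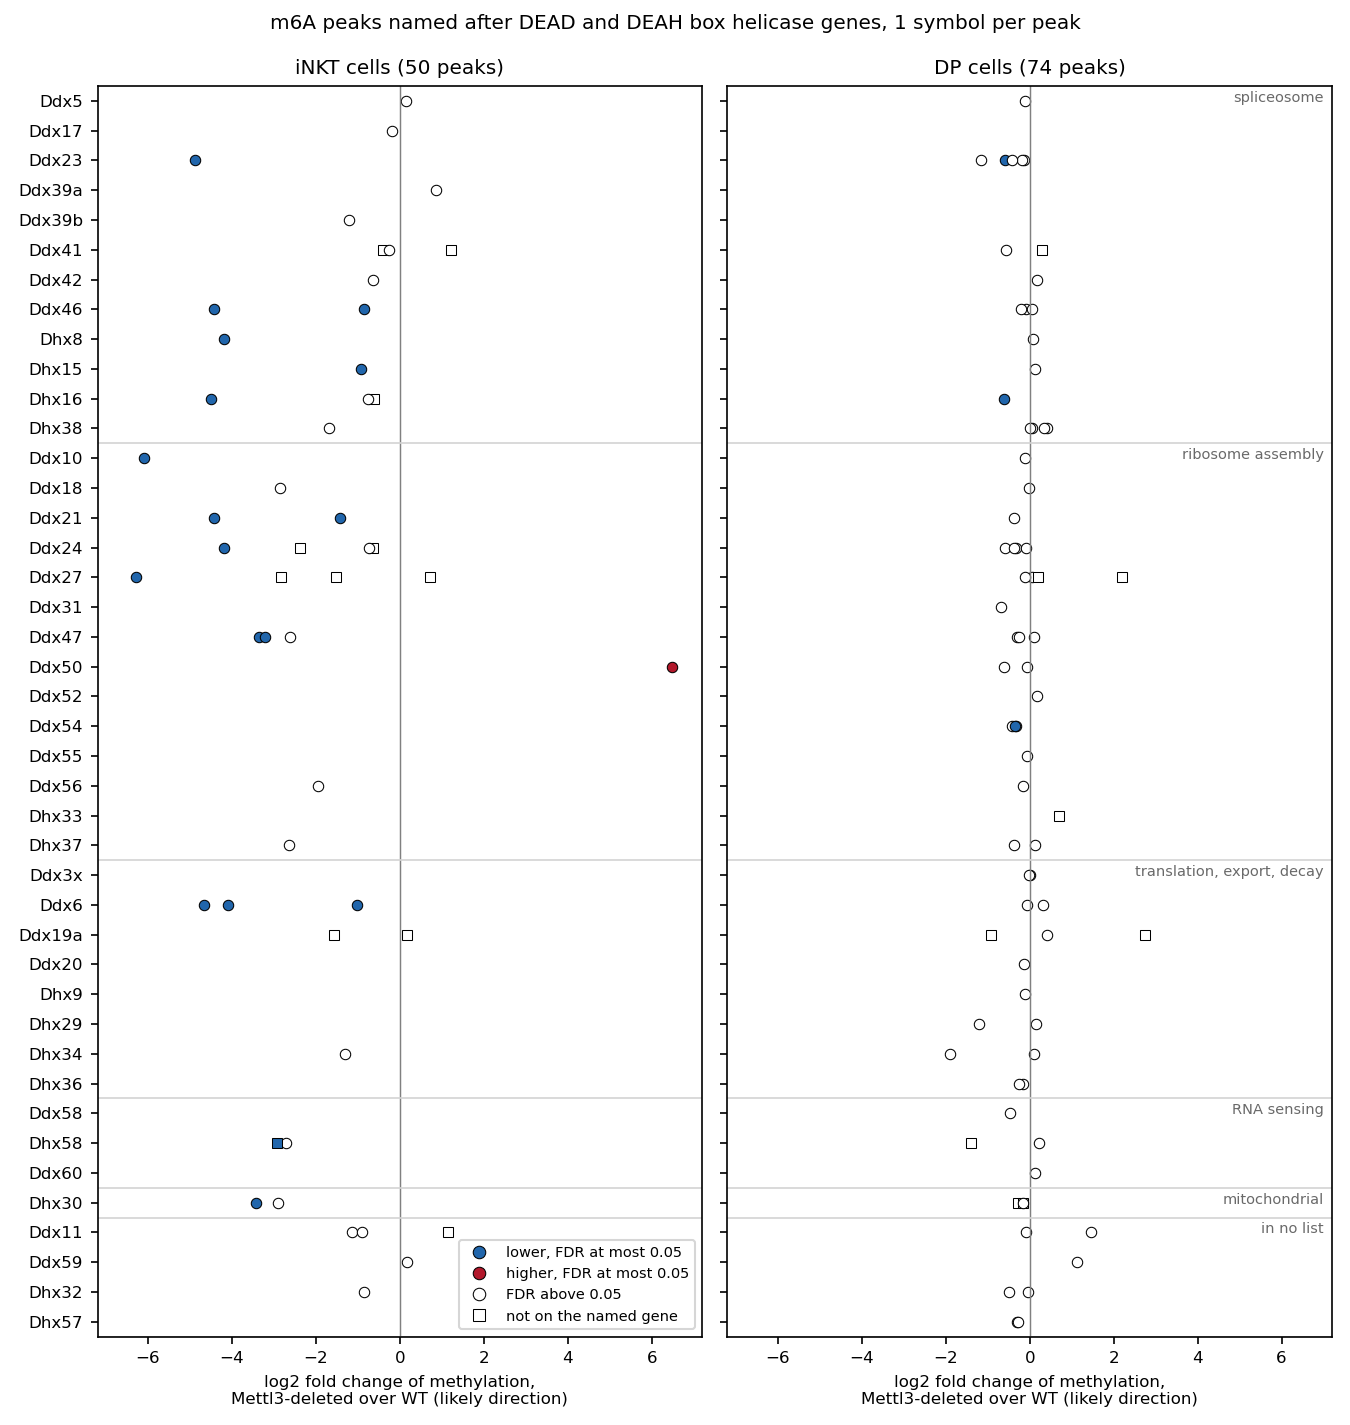
Log2 fold change of methylation (x axis, Mettl3-deleted over WT, likely direction) of every helicase peak by gene (y axis, grouped by role), for the iNKT and DP tables. Circles are peaks on the named gene, squares are peaks elsewhere, and coloured symbols passed at an FDR of 0.05: 18 lower and 1 higher in iNKT cells, and 3 lower in DP cells.

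Spliceosome helicases with a lower iNKT peak are known to act at different steps of splicing. Of 12 spliceosome helicase genes with an iNKT peak, 5 had a lower one and none a higher one. Among all genes with an iNKT peak the shares were 26.2% and 9.64%. The 17 peaks named after the spliceosome genes had a median of -0.766 in the authors' deposited table, against -0.976 for all iNKT peaks. Ddx46 helps the U2 particle bind the branch site. For its peak in exon 4 of 22 (chromosome 13, 55645437 to 55650547) the authors' deposited table gave -4.44, with the smallest FDR of the family (1e-109), and for one in exon 19 it gave -0.849 (FDR 0.019). Ddx23 acts where the U6 particle replaces U1 at the 5' splice site, and its peak in exon 7 of 17 (chromosome 15, 98651303 to 98651680) was listed at -4.89 in the authors' deposited table (FDR 2e-39).

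The DEAH members of the group act later in the cycle. Dhx16 activates the assembled spliceosome, and the authors' deposited table gave -4.51 (FDR 1.5e-06) for its peak in exon 2 of 20 (chromosome 17, 35881456 to 35881683), whose fold enrichment was only 1.68. The peak in the 3' UTR of Dhx16 had a fold enrichment of 17.8 and did not pass (-0.766, FDR 0.76). Dhx8 releases the spliced mRNA, and the authors' deposited table gave -4.18 (FDR 5e-18) for its peak in exon 6 of 23 (chromosome 11, 101738169 to 101738468). Dhx15 takes the spent spliceosome apart. It had a smaller change, listed as -0.923 (FDR 1.3e-06) in the authors' deposited table, in exon 2 of 14 (chromosome 5, 52184568 to 52184957). Peaks named after Ddx5, Ddx17, Ddx39a, Ddx39b, Ddx41, Ddx42 and Dhx38 did not pass. Ddx41 gave its name to 3 of them, 1 on each strand at its 5' end (-0.256 on its own strand and -0.394 on the opposite one) and 1 over Fam193b (1.22), per the authors' deposited table.

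Helicases of ribosome assembly held the most negative values of the family. Of 9 such genes with an iNKT peak, 5 had a lower one and 1 a higher one. Among all genes with an iNKT peak the shares were 26.2% and 9.64%. The median over the 18 peaks named after the ribosome assembly genes was -2.64 in the authors' deposited table, against -0.976 for all iNKT peaks. The 18 include peaks named after Ddx27 that lay in Znfx1 and peaks named after Ddx24 that lay outside it, and none of these passed. Ddx27, a nucleolar protein of pre-rRNA processing, was listed at -6.29 (FDR 1.6e-20) over 390 nt from exon 2 of 21 (chromosome 2, 167017868 to 167020647) in the authors' deposited table. Ddx10, which acts in assembly of the small ribosomal subunit, was listed at -6.10 (FDR 1e-33) in exon 13 of 18 (chromosome 9, 53204176 to 53204444) in the authors' deposited table. The Ddx10 peak was also the strongest of the family in iNKT cells, with a log10 peak p-value of -3640 and a fold enrichment of 20.8, per the authors' deposited table.

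Ddx21 couples RNA polymerase I to rRNA processing. Both iNKT peaks named after it were lower, and the authors' deposited table gave -4.44 in exon 2 of 15 (FDR 3.2e-37) and -1.43 in exon 1 (FDR 0.0018). Another iNKT peak on Ddx21 and its strand, in the 3' UTR and named Kifbp, did not pass (-0.186, FDR 0.76). For Ddx24, another nucleolar helicase, the authors' deposited table gave -4.19 in exon 3 of 9 (FDR 1e-09), and -0.728 in the 3' UTR, where the peak did not pass (FDR 0.16). Ddx47 acts in early pre-rRNA cleavage, and its peaks annotated as 3' UTR stood at -3.36 (FDR 1e-16) and -3.21 (FDR 2.8e-05) in the authors' deposited table. The changes in these genes lay in early exons for Ddx21 and Ddx24 and at the 3' end for Ddx47.

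The higher peak lay in Ddx50, a close relative of Ddx21. Per the authors' deposited table it measured 121 nt (chromosome 10, 62623566 to 62623686) and had a log2 fold change of 6.49 (FDR 0.0016). It was a weak peak, with a -log10 peak p-value of 6.53, against a median of 18.2 for all iNKT peaks. Ddx18 had the highest fold enrichment of the family, 196 in its 3' UTR, where the authors' deposited table listed a change of -2.85 that did not pass (FDR 0.23). Dhx37, a DEAH helicase of the small-subunit processome, came next with a fold enrichment of 57.5 and a change of -2.65 (FDR 0.55), per the authors' deposited table. High enrichment over input and a passing change were therefore not the same thing among these genes.

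Among helicases of translation, export and decay, 3 gave their name to an iNKT peak, and Ddx6 alone of these had a passing one. Of all genes with an iNKT peak, 26.2% had a lower one and 9.64% a higher one. Dhx9 and Dhx29, of the same group, carried passing iNKT peaks under other names, which are given below. Ddx6 encodes a repressor of translation and partner of the decapping machinery in P-bodies. All 3 of its iNKT peaks were lower. The authors' deposited table gave -4.66 in the 5' UTR (FDR 1.7e-06, chromosome 9, 44607180 to 44607450), and in the 3' UTR -1.02 (FDR 0.019) and -4.09 (FDR 7.9e-15, 44637164 to 44637463). Dhx34, of nonsense-mediated decay, had no passing peak. Both peaks named after Ddx19a, of mRNA export, lay outside it, in St3gal2, and neither passed.

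Dhx30 acts in assembly of the mitochondrial ribosome. The authors' deposited table gave -3.42 (FDR 5.2e-06) for its peak annotated as 3' UTR (chromosome 9, 110092825 to 110093065), and -2.91 for one in exon 8, which did not pass (FDR 0.22). Of the RNA sensors, Dhx58, which encodes the RIG-I-like protein LGP2, gave its name to 2 iNKT peaks. The passing one, at -2.93 (FDR 0.033) in the authors' deposited table, lay outside Dhx58 and within its neighbour Kat2a, a histone acetyltransferase gene. The peak on Dhx58 itself stood at -2.71 (FDR 0.36) in the authors' deposited table. Without the Kat2a peak, 17 lower peaks in 12 genes were left.

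Genes in none of these groups had no passing iNKT peak. Ddx11, a DNA helicase of sister chromatid cohesion, had peaks at -1.15 and -0.899 and gave its name to one over Washc1 at 1.15, per the authors' deposited table. Dhx32 and Ddx59 were listed at -0.862 and 0.177 in the authors' deposited table.

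Lower peaks were more frequent among helicase peaks in exons than among those in the 5' UTR. Of the 38 iNKT peaks that lay on the gene they were named after, on its strand, 14 were in exons outside the UTRs, and 11 of these were lower. The 3' UTR held 13, of which 5 were lower, and the 5' UTR 11, of which 1, that of Ddx6, was lower. The medians by class were -4.19, -2.65 and -0.862 in the authors' deposited table. Counting all 50 helicase peaks, the lower share was 64.7% for exons, 28.6% for the 3' UTR and 8.33% for the 5' UTR. Over the whole iNKT table, also without regard to the named gene, it was 19.5%, 22.2% and 13.8%. Of the 14 exon peaks, 10 had their centre before the midpoint of the gene span, introns included, whatever their call. Of the 11 lower ones, 9 did, namely those of Ddx10, Ddx21 (both), Ddx24, Ddx27, Ddx46 (exon 4), Dhx8, Dhx15 and Dhx16. The other two were those of Ddx23 and of Ddx46 in exon 19. Peak strength moved with class: the median -log10 peak p-value was 220 for exon peaks, 170 for 3' UTR peaks and 11.1 for 5' UTR peaks. Its part in the difference between classes was not tested.

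**Figure D2:**
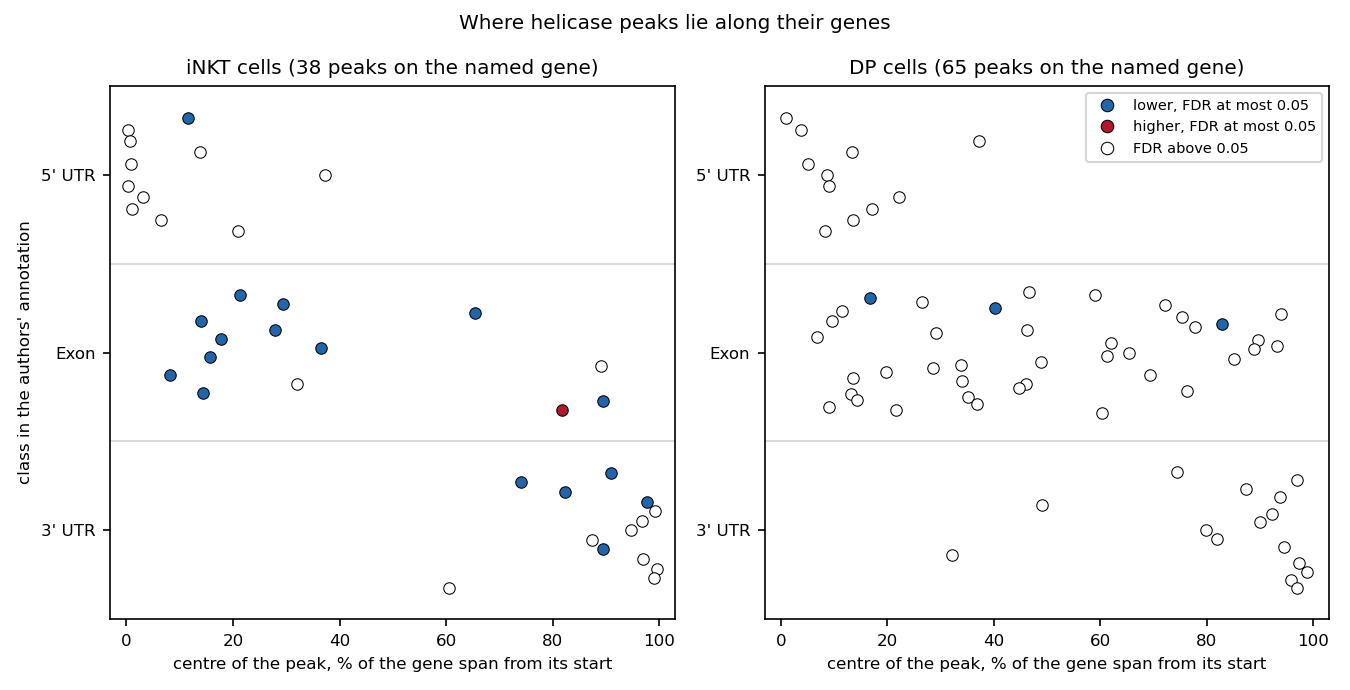
Centre of each helicase peak along its gene (x axis, percent of the RefSeq gene span from its start, introns included) by class in the authors' annotation (y axis), for peaks on the named gene in the iNKT and DP tables. In iNKT cells 11 of 14 exon peaks were lower. Before the midpoint of the gene lay 10 of the 14, 9 of them lower.

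In the iNKT table stronger peaks were lower more often, among helicase peaks as among all peaks. With a -log10 peak p-value of at least 100, 15 of 21 helicase peaks were lower in iNKT cells (71.4%), against 64.7% of all such peaks. Between 10 and 100, 3 of 21 were lower (14.3%), against 11.3% of all. Below 10, none of 8 was lower, against 0.352% of all. Helicase peaks were stronger than most, with a median of 52.6 against 18.2 for all iNKT peaks, and in each range of strength their lower share was near that of the iNKT table. In the DP table none of 5 helicase peaks was lower at 100 or more, against 3.75% of all DP peaks, 3 of 31 were lower between 10 and 100 (9.68%), against 1.48%, and none of 38 below 10, against 0.143%.

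**Figure D3:**
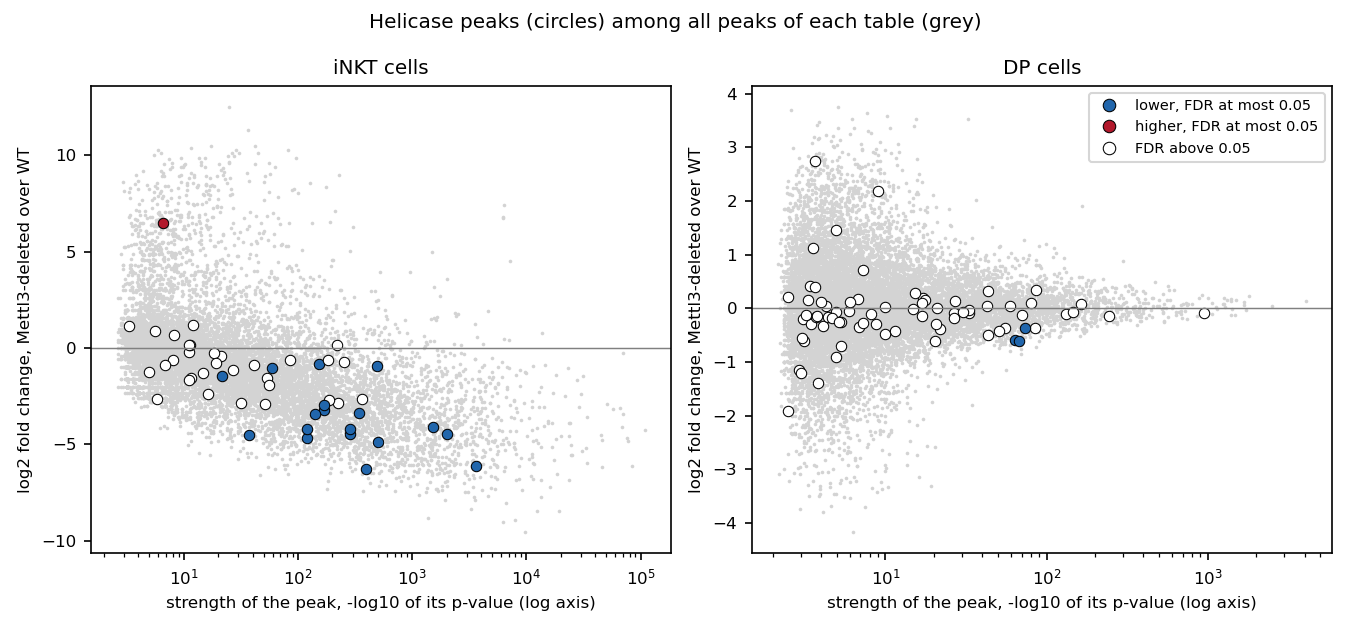
Log2 fold change (y axis, Mettl3-deleted over WT, likely direction) against peak strength (x axis, -log10 of the peak p-value, log axis) for helicase peaks and all peaks (grey) in the iNKT and DP tables. Of the 21 iNKT helicase peaks at or above 100, 15 were lower, and of the 5 DP helicase peaks there none was.

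In DP cells few helicase peaks passed, and their changes were small. Of 74 peaks, 3 were lower in Mettl3-deleted DP cells (4.05%) and none was higher, while 0.743% of all DP peaks were lower and 0.483% higher, 1.23% in either direction. By gene, 3 of 39 had a lower DP peak (7.69%). Of all genes with a DP peak, 1.44% had a lower one and 0.876% a higher one. Dhx16 had the smallest FDR of the DP helicase peaks (8.1e-06), with -0.613 over 449 nt from exon 2 (chromosome 17, 35881337 to 35882481) in the authors' deposited table. Ddx23 was listed at -0.583 (FDR 0.013) from exon 3 of 17 (chromosome 15, 98652878 to 98658068) in the authors' deposited table. That is another stretch than its lower iNKT peak in exon 7, where the DP value was -0.132 (FDR 0.59) in the authors' deposited table. Ddx54, of ribosome assembly, was listed at -0.361 (FDR 0.0091) from exon 16 of 20 (chromosome 5, 120625712 to 120626211) in the authors' deposited table.

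None of the 3 DP changes reached 2-fold. The median log2 fold change of the 74 peaks was -0.113, against 0 for all DP peaks, in the authors' deposited table, and 48 were negative (64.9%), against 49.7% of all. Spliceosome helicases had a lower DP peak in 2 of 9 genes and ribosome assembly helicases in 1 of 14, against 1.44% of all genes. No peak passed in the 8 genes of translation, export and decay, in the 3 sensor genes or in Dhx30. Ddx58, which encodes RIG-I, and Ddx60 had a DP peak and no iNKT peak, and the authors' deposited table gave -0.469 (FDR 0.65) and 0.115 (FDR 0.75). The most enriched DP helicase peak was that of Ddx20, a component of the SMN complex that builds splicing particles, with a fold enrichment of 33.6 and a change of -0.144 (FDR 0.64) in the authors' deposited table. Dhx57 and Ddx55 followed with 20.3 and 19.1, and with changes of -0.294 and -0.0725, per the authors' deposited table. Ddx23 had 5 DP peaks, the most of the family, and Ddx24, Ddx27 and Dhx38 had 4 each. The 4 DP peaks of Dhx38, a spliceosome helicase, lay between 0.00617 and 0.407 in the authors' deposited table, and none passed.

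Peaks of both tables were paired where they shared at least 1 exonic base on the same strand, which gave 30 pairs in 21 genes, so that one stretch of transcript could be read in both cell types. In 17 pairs the iNKT peak was lower. The 15 DP peaks paired with these had values between -1.39 and 0.322 in the authors' deposited table. The -1.39 belonged to the pair named after Dhx58 that lay in Kat2a, and the next lowest was -0.613, that of Dhx16. With only peaks on their named gene, 25 of the 30 iNKT peaks remained paired. Dhx16 was the 1 pair lower in both, at -4.51 in iNKT cells and -0.613 in DP cells, per the authors' deposited table. The pair of Ddx27 had -6.29 in iNKT cells and 0.052 in DP cells, that of Ddx10 had -6.10 and -0.116, and that of the Ddx6 5' UTR -4.66 and 0.322, per the authors' deposited table. Over the pairs the median was -2.77 in iNKT cells and -0.00595 in DP cells, and over all paired peaks of the tables it was -1.83 and 0.0817. Of the paired helicase iNKT peaks 56.7% were lower, against 38.3% of all paired iNKT peaks. Of the 20 unpaired iNKT helicase peaks, 1 was lower, that of Dhx30. The difference between cell types was not tested, since the tables were made separately and hold no values per replicate.

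**Figure D4:**
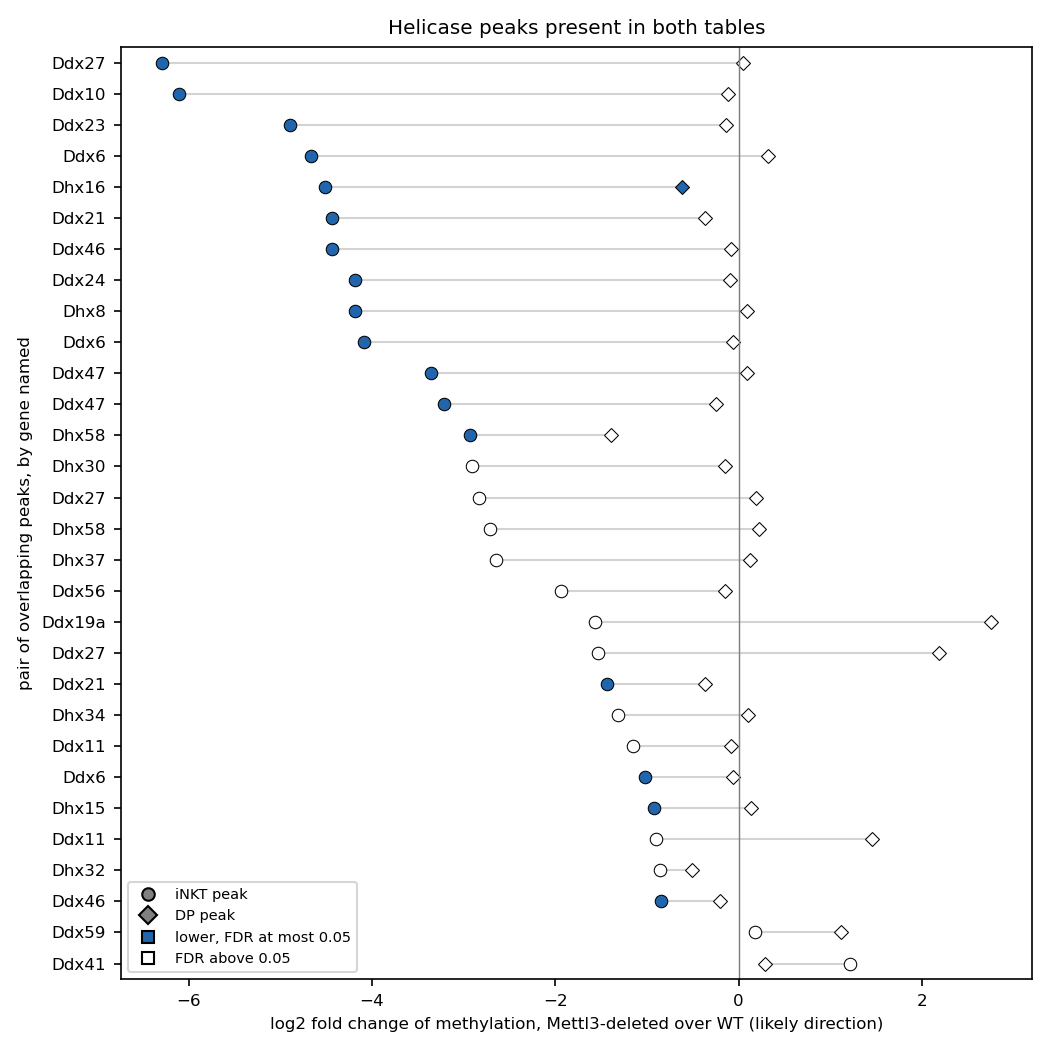
Log2 fold change of methylation (x axis, Mettl3-deleted over WT, likely direction) for the 30 pairs of overlapping peaks named after helicases (y axis, by gene named). The iNKT and the DP peak of a pair are joined by a line. In 17 pairs the iNKT peak was lower, and in 1 of these, Dhx16, the DP peak was lower too.

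Of the 42 genes, 26 gave their name to a peak in both tables, 3 in the iNKT table alone (Ddx17, Ddx39a and Ddx39b) and 13 in the DP table alone. The 13 included Ddx3x, which acts in translation initiation, Dhx9, Dhx36, which unwinds G-quadruplexes, and Dhx29, which helps ribosomes scan structured 5' UTRs. Names limit this count, because some peaks carry the name of a neighbour. Of the members, 12 iNKT peaks and 9 DP peaks did not lie on their named gene and its strand, and 1 of these 21 passed, the Kat2a peak. The minus-strand peaks named Ddx27, 3 in the iNKT and 2 in the DP table, lay in Znfx1, itself an RNA helicase gene.

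Conversely, 20 iNKT peaks lay on a helicase gene and its strand under another name, and 5 of them were lower and 1 higher, against 19.8% and 5.84% of all iNKT peaks. They are not members. The lower ones in the authors' deposited table were on Ddx55 (named Eif2b1, -5.38, FDR 0.00049), Ddx54 (Cfap73, -4.33, FDR 6.6e-08), Ddx23 (Cacnb3, -3.08, FDR 0.034), Ddx42 (Ftsj3, -2.81, FDR 2.5e-17) and Dhx9 (Shcbp1l, -2.25, FDR 1.7e-05). The higher one lay on exon 23 of 27 of Dhx29 (named Ccno), and the authors' deposited table gave it 9.49 (FDR 1e-17, chromosome 13, 112963340 to 112964639). Of 18 such DP peaks none passed. Opposite strands could give near-equal values: at the 3' end of Ddx54 the authors' deposited table held -4.33 on the plus and -4.16 on the minus strand, and at Ddx49 0.556 on both. Among 262 pairs of iNKT peaks on opposite strands that shared at least 90% of the shorter peak, 73.3% lay within 0.5 of each other in log2 fold change, so at overlapping genes the source of a peak cannot be told apart.

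Genes related to the family were read by the same call. Of all genes with an iNKT peak, 26.2% had a lower one. Of 10 other RNA helicase genes with an iNKT peak, 4 had a lower one, among them Znfx1 (-5.10), Helz2 (-3.22) and Helz (-1.96), per the authors' deposited table. Znfx1 also had a higher one, at 3.29 (FDR 0.00025) in the authors' deposited table. Of 8 genes for G-patch proteins, a class that includes activators of DEAH helicases, 4 had a lower iNKT peak: Gpatch11 (-5.14), Gpatch3 (-5.06), Rbm17 (-4.69) and Tfip11 (-2.39), per the authors' deposited table. Tfip11 encodes a partner of Dhx15. Of 3 genes for partners of Ddx6, 1 had a lower peak: Cnot1, the scaffold of a deadenylase complex, at -3.64 (FDR 0.0046) in the authors' deposited table. In DP cells no peak passed in 12 other helicase genes, 13 G-patch genes and 7 genes for Ddx6 partners, against 2.3% of all genes with a passing DP peak.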

How the data were processed

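The upstream software, credited to the submitters' notes on processing, included STAR 2.6.0a, RSEM 1.3.0, HOMER 4.9.1, Trim Galore 0.6.5 and FastQC 0.11.5, with mm10 as the build. Neither the peak caller nor any pooling of replicates is named in the labels or headers, and column names are those of exomePeak. Per the file headers, the authors deposited a peak p-value, a fold enrichment as a linear ratio, a log2 fold change, block counts, and log10 p-values and FDRs. Peak p-values served here as scores of strength, and the FDRs of the change were taken as deposited to call peaks. Their gene lists hold symbols. Starts were turned into positions counted from 1.

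From these, repeated rows were dropped (24 iNKT and 5 DP), passing peaks were counted by sign at an FDR of 0.05, and peaks were paired by exonic overlap. A peak lay on its gene if it overlapped the RefSeq span (GRCm38.p6) on the gene's strand, taken from the promoter table for 36 genes and from most of the gene's own peaks for 6. No test was added. Counting and pairing recovered the planted values in 9 of 9 checks on simulated tables. The rule for names took genes with a passing peak or passing pair, the 5 with the highest fold enrichment and the 5 with the most peaks per table, and up to 4 passing genes each way from a related list; other genes were named after their values were seen. A gene of a related list and a marker list are not reported here. Members and lists were chosen with earlier results of these data known. Software was Python 3.11.15, pandas 2.3.3, numpy 2.4.6, SciPy 1.17.1 and matplotlib 3.10.9.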

Additional observations from a re-analysis of the deposited data

How the results depend on the processing

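Of 73 recomputed values of 10 results, 62 kept their direction and stayed within 1.5 times the count, or within the median's interval. With the sign turned, which the files do not settle, the iNKT counts would be 1 lower and 18 higher peaks (in 1 and 13 genes) and the DP counts 0 lower and 3 higher, and the medians would be 1.48 in iNKT cells and 0.113 in DP cells. With changes of at least 2-fold only, 0 DP peaks were lower. With peaks of a -log10 peak p-value of at least 10 only, a choice made after seeing the data, 0 iNKT helicase peaks in 0 genes were higher, since the Ddx50 peak is weaker than that. Across the other alternatives the lower iNKT peaks numbered 15 (FDR of 0.01) to 18. No paired analysis was possible because the tables hold no values per library, and leaving out a replicate was not run for the same reason. Depth per library is unknown, so a peak that did not pass was not shown to be unchanged.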
